A study of Rattus norvegicus with 120 samples.

Results

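Kidneys of obese rats were set against kidneys of lean rats, both on vehicle, with 10 obese and 9 lean libraries out of the 120 in the series. The rats were ZSF1 animals aged 30 weeks, a cross of diabetic and heart-failure-prone rat strains in which obese animals inherit a defective leptin receptor from both sides and develop obesity, diabetes, hypertension and kidney disease. The obese group carried the label ZSF1 Obese and the lean group ZSF1 Lean; both belonged to study A and received chow without drug. Other groups of the series received the BDK inhibitor BT2, the SGLT2 inhibitor empagliflozin or both, and hearts were sequenced beside 60 kidney libraries. All libraries labelled kidney, obese, vehicle and study A were taken, and all lean ones but replicate 8, which held transcripts of muscle. The design text gives 1 rat per library and names both whole kidney and kidney cortex, so how much medulla each sample held is not known.

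The nephron filters blood in the glomerulus and recovers most of the filtrate in the proximal tubule, whose cells burn fatty acids and amino acids in dense mitochondria to drive transport. The loop of Henle, distal tubule and collecting duct then set the final content of salt, water and acid in urine. Injured proximal tubule cells are known to lose transporters and to switch on injury genes such as Havcr1, while fibroblasts lay down matrix and leukocytes enter the tissue. In the text a gene rose or fell only where it was called, meaning that its Benjamini-Hochberg adjusted p from edgeR's quasi-likelihood test, taken over all genes tested, was under 0.05 with the plate as covariate. Levels are given as CPM (counts scaled by TMM library size so that depth cancels) and are compared only within a gene. Differences are log2 fold changes of obese against lean, with the standard error after ±.

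The libraries held 6.62 to 28.1 M (mega) counts, with a median of 9.01 M in lean and 13.8 M in obese kidneys, and mitochondrial transcripts took 11.8% to 19.2% of counts. Replicates 1 to 5 were on plate 1 and 6 to 10 on plate 2. The first principal component of the 500 most variable genes, with 38.4% of their variance, separated the plates apart from obese replicate 2. Obese replicate 4 lay between the other libraries of both plates. On the second, with 24.5%, lean kidneys lay from -4.77 to 26.3 and obese ones from -29.0 to 0.57, so the groups overlapped in part with the plates pooled. Within a plate they did not: lean kidneys reached down to -4.77 and obese ones up to -4.85 on plate 1, against 22.7 and 0.57 on plate 2. Lean kidneys also lay below obese ones of their plate on the first component. Obese replicates 2 and 4 are labelled plate 1 but lay at 21.5 and 5.03 on the first component, above the other plate 1 libraries (-32.0 to -13.0); plate 2 ran from 7.09 to 28.2. A repeat run was added to 6 of 10 obese and 1 of 9 lean libraries. On plate 1 only obese replicates 2 and 4 had one. The original run of obese replicate 2 held 0.007 M counts and its repeat 13.5 M. Obese replicate 4 held 7.00 M and 7.22 M, with 145 genes over 2-fold apart between runs, against 20 to 26 in the others compared. The repeat of obese replicate 10 held 0.007 M. The part of the repeat run in the place of replicates 2 and 4 was not tested. Lean replicate 8, with 54.9 M counts, is absent from the authors' deposited table and held Myh4, the fast myosin of skeletal muscle, at 10303 CPM against a median of 31.6 CPM in the other lean kidneys. It also stood on the obese side in kidney genes, with Havcr1 at 157 CPM and Egf at 492 CPM; of 248 called genes named by rule, 188 lay beyond the other 9 lean kidneys towards the obese ones.

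Obesity went with a change in a large share of the kidney's genes. Of 14240 genes tested, 2792 (19.6%) rose and 2631 (18.5%) fell, together 5423 (38.1%), and the median over all genes was -0.01. Changes of 2-fold or more were mostly upward, with 720 genes against 145. In 1225 genes (8.60%) the 9 lean and 10 obese values did not overlap. With lean replicate 8 included 4560 genes were called, on plate 1 alone 4210 and on plate 2 alone 2766, with no call of opposite sign among those shared. The authors' deposited table holds 6036 genes with an adjusted p under 0.05; 5363 of the 5423 calls are among them, all in the same direction. The shares of 19.6% and 18.5% are the background against which the counts of the 51 gene lists below are read. Of their 918 genes 812 were tested, and 303 rose and 260 fell. The lists were chosen with earlier results of these data known. A share above the background therefore describes a list and is no test of it. The background is lower in fits that called fewer genes. Of 14294 genes tested on plate 1 alone 2278 rose and 1932 fell, and of 14292 on plate 2 alone 1636 and 1130. With lean replicate 8 included 2398 of 14230 rose and 2162 fell, and with a term for a repeat run 2141 and 1829 of 14240. A list's count in such a fit is read against these.

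**Figure D1:**
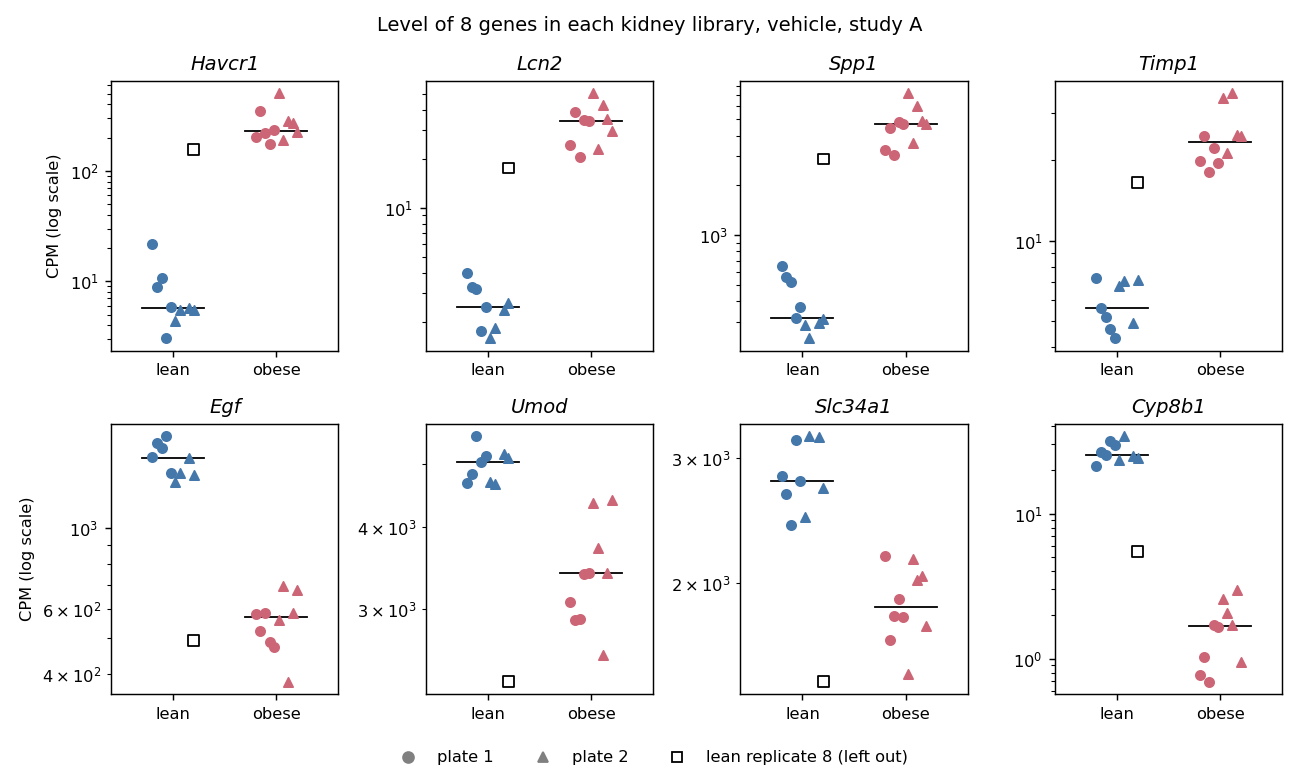
CPM on log axes of 8 genes in each of the 9 lean and 10 obese kidneys; circles are plate 1, triangles plate 2, the line is the group median and the open square is lean replicate 8, left out of the test. In each of the 8 genes the 9 lean and 10 obese libraries tested do not overlap, with Havcr1 between 3.04 and 21.9 CPM in lean and between 176 and 504 CPM in obese kidneys.

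Many of the largest rises of single genes were in genes of tubule injury and of the acute phase, the set of secreted defence proteins switched on by interleukin-6 type cytokines. Of 32 injury and repair genes tested 27 rose and 1 fell, with a median of 1.01, and of 21 acute phase and cytokine genes 19 rose and 0 fell, with a median of 1.56. Of the 15 highest called genes with a mean of at least 5 CPM in either group, 7 belonged to these lists. Sequence upstream of their start sites, 250 bases each, is shown for the 6 of them that are in the RefSeq table (build GRCr8), because these genes led the comparison. The windows are chr10:31629528-31629777 for Havcr1 on the plus strand, and on the minus strand chr3:36081781-36082030 for Lcn2, chr14:5619805-5620054 for Spp1, chr13:44910761-44911010 for Il24, chr13:44958715-44958964 for Il19 and chr2:170700876-170701125 for Fgb. All run 5′ to 3′ in the direction of the gene, and capitals mark matches to the letters TTCNNNGAA, bound by STAT factors, or TGANTCA, bound by AP-1; both read the same on either strand.
Havcr1: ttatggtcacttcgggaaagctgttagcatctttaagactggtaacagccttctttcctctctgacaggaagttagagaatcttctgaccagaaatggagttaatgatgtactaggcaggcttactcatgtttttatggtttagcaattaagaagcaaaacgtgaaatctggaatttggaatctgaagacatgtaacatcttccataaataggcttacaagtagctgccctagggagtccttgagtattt
Lcn2: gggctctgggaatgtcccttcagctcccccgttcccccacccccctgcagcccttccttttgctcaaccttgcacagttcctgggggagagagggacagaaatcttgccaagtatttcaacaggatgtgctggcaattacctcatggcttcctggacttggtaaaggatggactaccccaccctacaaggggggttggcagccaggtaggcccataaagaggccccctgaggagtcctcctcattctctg
Spp1: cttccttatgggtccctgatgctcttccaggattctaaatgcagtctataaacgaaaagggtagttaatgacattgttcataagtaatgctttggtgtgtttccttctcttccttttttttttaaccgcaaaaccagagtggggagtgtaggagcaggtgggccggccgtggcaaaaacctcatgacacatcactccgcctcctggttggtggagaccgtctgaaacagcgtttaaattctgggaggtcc
Il24: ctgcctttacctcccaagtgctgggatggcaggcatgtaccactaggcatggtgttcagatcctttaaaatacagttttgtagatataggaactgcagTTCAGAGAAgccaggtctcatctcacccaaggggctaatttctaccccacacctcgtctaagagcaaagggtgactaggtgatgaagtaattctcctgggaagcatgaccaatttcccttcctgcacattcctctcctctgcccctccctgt
Il19: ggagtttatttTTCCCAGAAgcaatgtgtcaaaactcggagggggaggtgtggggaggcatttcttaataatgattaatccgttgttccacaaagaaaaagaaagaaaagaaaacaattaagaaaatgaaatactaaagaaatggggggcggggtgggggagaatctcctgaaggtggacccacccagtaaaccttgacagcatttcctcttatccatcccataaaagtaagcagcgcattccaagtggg
Fgb: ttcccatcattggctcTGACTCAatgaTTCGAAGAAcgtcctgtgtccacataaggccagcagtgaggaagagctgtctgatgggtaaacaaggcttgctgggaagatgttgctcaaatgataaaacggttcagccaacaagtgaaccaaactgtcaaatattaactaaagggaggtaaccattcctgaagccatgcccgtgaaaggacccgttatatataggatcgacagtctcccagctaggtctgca
The STAT letters were in 3 of the 6 windows, those of Il24, Il19 and Fgb, where the match begins 152, 239 and 223 bases before the start. The AP-1 letters were in 1, that of Fgb, and did not overlap its STAT match. Over all 33469 RefSeq promoters, 7.67% hold the STAT letters and 6.34% the AP-1 letters in a window of this length. A match describes letters only and is not evidence of binding, and the windows of Havcr1, Lcn2 and Spp1 held neither.

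Havcr1 (ENSRNOG00000007243) encodes KIM-1, a receptor for phosphatidylserine that injured proximal tubule cells place on their surface. It ran from 3.04 to 21.9 CPM with a median of 5.78 CPM in lean kidneys and from 176 to 504 CPM with a median of 230 CPM in obese ones, a rise of 5.14 ± 0.31 (edgeR adjusted p = 1.21e-10). The lowest obese kidney stood well above the highest lean one, and the rise was 4.62 on plate 1 and 5.79 on plate 2. With lean replicate 8 included it was 3.76.

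Lcn2 (ENSRNOG00000013973), the iron-carrier protein NGAL, stood at 1.59 to 4.02 CPM in lean (median 2.46) and 20.6 to 50.3 CPM in obese kidneys (median 34.2), higher by 3.70 ± 0.20. Spp1, the secreted matrix protein osteopontin, stood at 238 to 656 CPM (median 316) against 3057 to 7196 CPM (median 4676), higher by 3.60 ± 0.22. Timp1, which inhibits matrix metalloproteinases, stood at 4.31 to 7.23 CPM (median 5.61) against 18.0 to 35.5 CPM (median 23.3), higher by 2.03 ± 0.12. None of these 3 genes had overlapping groups. Vcam1, an adhesion molecule also made by tubule cells that fail to recover, rose by 0.47 ± 0.14 but its obese range (20.2 to 58.9 CPM) covered the lean one (27.9 to 35.9 CPM). The injury gene that fell was Prom1, at -0.30, a stem cell surface marker.

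Several cytokines and liver-type plasma proteins went from near absence to clear expression. Il24 and Il19, cytokines of the interleukin-10 family, summed to 11 and 8 counts over the 9 lean libraries, with 5 and 3 libraries at 0, and to 1445 and 858 counts over the 10 obese ones, with no library under 71 and 31. Their levels were 0 to 1.12 CPM against 3.76 to 15.1 CPM for Il24 (median 8.07; 6.17 ± 0.50) and 0 to 0.247 CPM against 2.64 to 9.26 CPM for Il19 (median 4.93; 5.87 ± 0.38). So few lean counts leave the size of both folds loosely fixed: for Il24 it was 5.06 on plate 1 and 8.56 on plate 2.

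A2m, a protease-trapping plasma protein that is a classical acute phase gene of the rat, ran from 0 to 1.12 CPM in lean (median 0.351) and from 5.56 to 15.9 CPM in obese kidneys (median 8.59), with 4.85 ± 0.28. Fgb, the fibrinogen beta chain, ran from 1.48 to 3.42 CPM (median 1.91) and from 17.4 to 31.8 CPM (median 23.4), with 3.46 ± 0.16, and its partner Fga rose by 1.85 ± 0.09. The groups were apart in all 3. Lif, a cytokine of the interleukin-6 family, rose by 2.84 ± 0.16, from a lean median of 1.52 to an obese median of 10.6 CPM. Socs3, the feedback inhibitor of STAT3 signalling, rose by 2.58 ± 0.16, from 3.70 to 18.8 CPM. The shared receptor chain Il6st, at 0.21 ± 0.09, and Hp, haptoglobin, at 0.49 ± 0.19, were the members not called (edgeR adjusted p = 0.0585 and 0.0505). Il6, Il11, Il20rb, Serpina3n and Orm1, also of this list, did not pass the filter on low counts and were not tested.

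Liver markers moved beside these plasma proteins. Of 5 liver markers tested 4 rose: Fgb, Tf by 0.65, Serpina1 by 2.54 and Cps1, a urea cycle enzyme, by 2.86, while Apoc3 stood at -0.04 (edgeR adjusted p = 0.777). The summed level of the 5 ran from 146 to 181 CPM in lean and from 215 to 320 CPM in obese kidneys; Alb, Apoa1, Apoa2, Ttr and Ahsg did not pass the filter on low counts. The part of liver RNA in these rises was not tested.

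**Figure D2:**
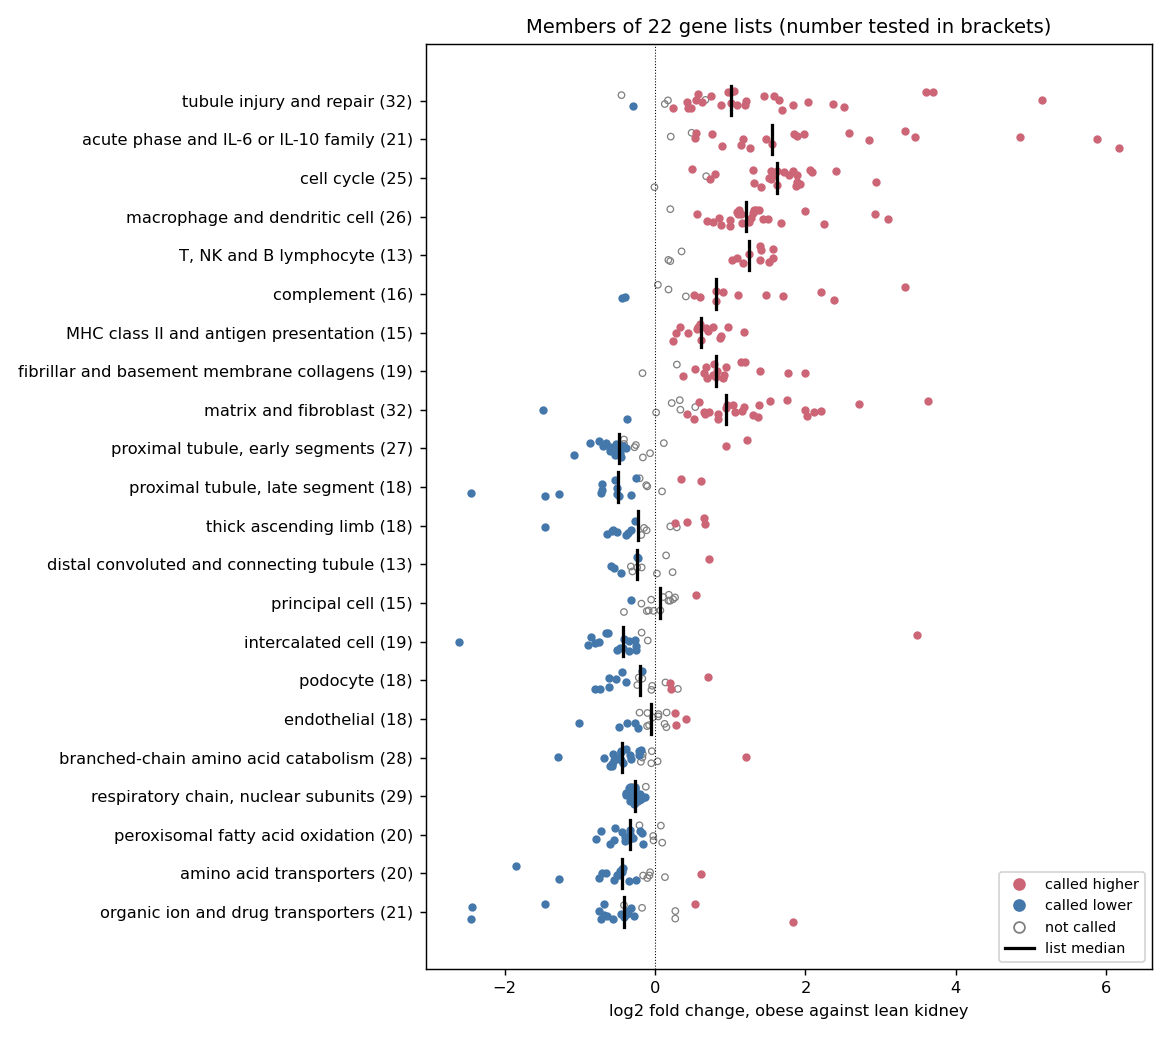
Log2 fold change of each tested member of 22 gene lists, obese against lean; filled red points rose, filled blue points fell, open points were not called, the bar is the list's median and the dotted line the median of all 14240 genes (-0.01). Lists of injury, leukocytes, matrix and cell cycle lie to the right and most lists of tubule segments, mitochondrial and transport genes to the left.

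Proximal tubule genes fell as a group. In the early segments 18 of 27 marker genes fell and 2 rose, with a median of -0.48, and in the late segment 12 of 18 fell and 2 rose, with a median of -0.49. In bulk tissue fewer cells of a type and less RNA per cell cannot be told apart. Slc34a1, which recovers phosphate, stood at 2419 to 3222 CPM in lean (median 2785) and 1485 to 2183 CPM in obese kidneys (median 1847), a fall of 0.60 ± 0.08 on the log2 scale with no overlap. Lrp2, or megalin, the receptor that takes up filtered protein, stood at 2926 to 3988 CPM (median 3293) against 1434 to 2596 CPM (median 1999), at -0.68 ± 0.09 and also without overlap. Miox, which breaks down inositol, fell further, to -1.08 ± 0.08.

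Slc5a2, the glucose carrier SGLT2 that empagliflozin blocks, fell less clearly. It ran from 239 to 353 CPM in lean (median 303) and from 98.2 to 309 CPM in obese kidneys (median 227), at -0.51 ± 0.16 (edgeR adjusted p = 0.0156), and the groups overlapped; the call was lost on plate 2 alone (-0.58, edgeR adjusted p = 0.155) and with a term for a repeat run (-0.43, edgeR adjusted p = 0.0957). The late-segment glucose carrier Slc5a1 (SGLT1) stood at 0.09 ± 0.06 and was not called (edgeR adjusted p = 0.269). Hnf4a, the transcription factor that maintains proximal tubule identity, fell by 0.53 ± 0.07 on the log2 scale. The 2 early-segment genes that rose were Slc2a2, the basolateral glucose carrier GLUT2, at 0.94, and Cyp27b1, which makes active vitamin D, at 1.22.

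Among late-segment genes, the transporter Slc7a13, which carries acidic amino acids, ran from 1918 to 2722 CPM in lean (median 2327) and from 517 to 1277 CPM in obese kidneys (median 943), at -1.27 ± 0.13. Slc22a13, an organic anion carrier, fell furthest, to -2.45 ± 0.20, and both genes had separate groups. The 2 that rose were Cyp4b1 (0.34) and the mannose and fructose carrier Slc5a10 (0.61). On plate 2 alone only 8 early-segment genes fell, with a median of -0.57, against 14 on plate 1 (-0.42), and 13 fell with lean replicate 8 included. Obese replicate 6 was the lowest obese kidney in 18 of 27 early-segment genes; without it 17 fell.

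For the thick ascending limb, which dilutes urine and makes uromodulin, 9 of 18 markers fell and 4 rose, with a median of -0.23. The rises were close to the background share. Egf (ENSRNOG00000053979), a growth factor made there and released into urine, had the largest fall of the list. It ran from 1340 to 1783 CPM in lean (median 1557) and from 380 to 697 CPM in obese kidneys (median 572), at -1.47 ± 0.10 (edgeR adjusted p = 3.07e-10), with no overlap. Umod, the uromodulin gene, ran from 4659 to 5517 CPM (median 5041) and from 2548 to 4405 CPM (median 3399), at -0.56 ± 0.09, also without overlap, although on plate 2 alone it was not called (-0.41, edgeR adjusted p = 0.0774). The salt carrier Slc12a1 was not called, at -0.11 ± 0.08 (edgeR adjusted p = 0.277). The 4 that rose were Cldn16, Ptger3, Enox1 and Cldn19, by 0.27 to 0.66. On plate 2 alone 3 of the 18 fell.

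Further along, 5 of 13 distal convoluted and connecting tubule genes fell (2 on plate 2 alone), among them the thiazide-sensitive carrier Slc12a3 at -0.54 ± 0.09, and 1, the calcium channel gene Trpv5, rose by 0.72 ± 0.14. Its relative Trpv6 was also among those 15 highest genes, at 3.53 ± 0.33. Principal cells of the collecting duct had few calls, below the background share in both directions: of 15 markers 1 rose, Sgk1, and 1 fell, Nr3c2, the mineralocorticoid receptor, at -0.31 ± 0.06. The water channel Aqp2 stood at -0.11 ± 0.21 and the sodium channel subunits Scnn1a, Scnn1b and Scnn1g at 0.07, -0.08 and -0.18; none was called.

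Most markers of intercalated cells, which secrete acid or base, fell: 16 of 19 fell and 1 rose, with a median of -0.43. Cftr, a chloride channel, ran from 12.2 to 24.7 CPM in lean (median 14.7) and from 1.28 to 3.89 CPM in obese kidneys (median 2.91), at -2.61 ± 0.17. Slc26a4, the chloride-bicarbonate exchanger pendrin of base-secreting cells, ran from 112 to 135 CPM (median 131) and from 42.2 to 85.9 CPM (median 77.1), at -0.89 ± 0.11. The groups were apart in both. Slc4a1, the exchanger of acid-secreting cells and also a red cell gene, fell to -0.65 ± 0.09, while the red cell gene Hba-a2 stood at 0.26 ± 0.21 (edgeR adjusted p = 0.356).

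The exception was Atp12a, a proton-potassium pump that exchanges acid for potassium. It rose from 0.634 to 1.73 CPM in lean (median 1.17) to 8.85 to 17.1 CPM in obese kidneys (median 11.9), by 3.48 ± 0.18, with no overlap. On plate 2 alone 7 intercalated cell genes fell, against 16 on plate 1, and 13 fell with lean replicate 8 included.

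Podocytes, whose foot processes form the filtration slit, lost part of their transcripts. Of 18 markers 8 fell and 3 rose, with a median of -0.20. Nphs1, or nephrin, the slit diaphragm protein, ran from 53.9 to 73.0 CPM in lean (median 61.4) and from 23.1 to 49.0 CPM in obese kidneys (median 41.3), at -0.73 ± 0.12 (edgeR adjusted p = 5.21e-05), with separate groups. Col4a3, a chain of the mature glomerular basement membrane, fell to -0.80 ± 0.09, and the cell-surface sialoprotein gene Podxl to -0.52 ± 0.09. The 3 that rose were Cd2ap (0.20), Plce1 (0.22) and Cdkn1c (0.71), a cell cycle inhibitor of mature podocytes. Obese replicate 6 was lowest in 11 of the 18 genes; without it 8 fell and 4 rose. On plate 1 alone 5 fell.

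Mesangial and juxtaglomerular cell genes leaned upward, with 6 of 10 higher (3 on plate 2 alone or with lean replicate 8 included), including the pericyte genes Pdgfrb at 0.51 ± 0.09 and Cspg4 at 0.85 ± 0.17, and 1 lower, the angiotensin receptor gene Agtr1a at -0.65 ± 0.14. Obese replicate 4, highest in the muscle markers described below, was the highest obese kidney in 7 of the 10; without obese replicates 2 and 4 the counts were again 6 and 1. Of 18 endothelial genes 5 fell (2 on plate 2 alone) and 3 rose, with a median of -0.05. The rises were close to the background share. The 3 higher were Lyve1, a marker of lymphatic vessels, at 0.41 ± 0.15, Plat, the tissue plasminogen activator, at 0.28 ± 0.05, and Esam, an adhesion molecule, at 0.27 ± 0.09. The 5 lower were Vwf, the clotting factor stored in endothelium, at -1.02 ± 0.14, Kdr, the main VEGF receptor, at -0.47 ± 0.12, Emcn at -0.37, Tek at -0.26 and Pecam1 at -0.23.

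Genes of the extracellular matrix rose broadly. Of 19 collagen genes 17 rose and 0 fell, with a median of 0.81, and of 32 other matrix and fibroblast genes 25 rose and 2 fell, with a median of 0.95. Col1a1, a chain of the fibrillar collagen of scars, ran from 15.9 to 29.3 CPM in lean (median 22.1) and from 41.5 to 95.7 CPM in obese kidneys (median 56.6), at 1.40 ± 0.14. Col8a1, a short-chain collagen, rose by 1.99 ± 0.19 and Col15a1, of basement membrane zones, by 1.77 ± 0.12. All 3 had separate groups. Col14a1 (0.29) and Col27a1 (-0.17) were not called.

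Fn1, fibronectin, ran from 83.6 to 131 CPM (median 101) and from 196 to 406 CPM (median 315), at 1.53 ± 0.10, without overlap. Ltbp2 and Tnc, microfibril and wound matrix proteins, rose by 2.00 ± 0.12 and 1.75 ± 0.10. Mmp12, the elastase of macrophages, rose by 3.63 ± 0.20, while Mmp9 and Tgfbi were the 2 that fell, to -1.48 and -0.38. Acta2, the smooth muscle actin of myofibroblasts, stood at 0.33 ± 0.15 and was not called (edgeR adjusted p = 0.0999). Obese replicate 4 was the highest obese kidney in 12 of 19 collagens and in all 13 muscle markers. None of the 13 was called; their sum ran from 11.7 to 1612 CPM in lean and from 20.7 to 2646 CPM in obese kidneys. Without obese replicates 2 and 4, 16 collagens rose, with a median of 0.76.

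Leukocyte genes rose. Of 26 macrophage and dendritic cell genes 25 rose and 0 fell, with a median of 1.20, and of 13 lymphocyte genes 10 rose and 0 fell, with a median of 1.25. Cd68, a lysosomal marker of macrophages, ran from 3.63 to 5.45 CPM in lean (median 4.07) and from 6.83 to 15.1 CPM in obese kidneys (median 10.7), at 1.34 ± 0.12. Gpnmb, a glycoprotein of lipid-laden and matrix-associated macrophages, ran from 3.70 to 11.7 CPM (median 6.33) and from 35.2 to 78.5 CPM (median 54.3), at 3.09 ± 0.19. The groups were apart in both. Adgre1, the F4/80 antigen of resident macrophages, stood at 0.20 ± 0.15 and was the member not called (edgeR adjusted p = 0.324).

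Outside the lists, Clec10a, a lectin of dendritic cells and macrophages, and Siglec1, a sialic acid receptor of macrophages, rose by 2.56 ± 0.12 and 3.48 ± 0.28. T cell genes moved less evenly: Cd3e, a chain of the T cell receptor complex, rose by 1.56 ± 0.21 from a lean median of 1.04 CPM to an obese one of 2.92 CPM, whereas Cd8a (0.20) and Nkg7 (0.18), genes of cytotoxic cells, were not called. Cd79b, a chain of the B cell receptor, rose by 1.51 ± 0.25, but Cd79a was not called, at 0.35. These lymphocyte levels are low, and 9 further genes of that list were not tested.

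Among chemokines 11 of 15 rose and 1, Cxcl12, fell, to -0.50. The highest were Ccl19 at 2.07 ± 0.13 and Ccl21 at 1.57 ± 0.15, which guide lymphocytes and dendritic cells through CCR7. Of 16 complement genes 11 rose and 2, Cd55 and Cd59, which protect cells from complement, fell, to -0.44 and -0.39. C3, the central component, rose by 1.47 ± 0.11 and Cfi, the protease that inactivates it, by 2.38 ± 0.15. C4b and C4a stood at 3.32 ± 0.19 and 2.21 ± 0.14, but they are near-identical and may share reads, so how the rise divides between them is uncertain.

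All 15 genes of MHC class II and antigen presentation rose, with a median of 0.61, led by the immunoproteasome subunit Psmb8 at 1.19 ± 0.11; the RT1 genes among them can share reads with each other. Interferon response genes followed, with 18 of 23 higher and 1, Ddx58, lower, and a median of 0.53. Irf1, a transcription factor of that response, rose by 0.97 ± 0.10. On each plate alone 11 interferon genes rose.

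Genes of cell division rose as well: 23 of 25 rose and 0 fell, with a median of 1.62. Mki67, the proliferation marker Ki-67, ran from 2.66 to 5.30 CPM in lean (median 3.60) and from 9.56 to 19.5 CPM in obese kidneys (median 14.6), at 1.92 ± 0.14, with separate groups. Top2a, which untangles DNA, rose by 2.09 ± 0.15 and the mitotic kinase Aurkb by 2.94 ± 0.23. Inhibitors of division rose beside them. Cdkn1a, or p21, ran from 2.18 to 4.57 CPM (median 2.56) and from 10.7 to 25.1 CPM (median 13.5), at 2.40 ± 0.18, and Cdkn2b stood at 2.58 ± 0.38. Of 15 p53 and senescence genes 11 rose (6 on plate 2 alone) and 1, Sesn2, fell, to -0.29. Of 15 immediate-early genes 13 rose and 0 fell (7 on plate 1 alone and 9 on plate 2 alone), with the transcription factor Egr2 at 3.30 ± 0.29 and Klf6 at 1.26 ± 0.11.

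The series was designed around branched-chain amino acids. Leucine, isoleucine and valine are transaminated, then decarboxylated by a mitochondrial dehydrogenase (Bckdha, Bckdhb, Dbt and Dld) that the kinase BDK (Bckdk) switches off and the phosphatase PP2Cm (Ppm1k) switches on. Of 28 genes of the pathway 21 fell and 1 rose, with a median of -0.44. Ppm1k (ENSRNOG00000006893) ran from 90.0 to 111 CPM in lean (median 99.1) and from 28.1 to 48.1 CPM in obese kidneys (median 41.6), at -1.28 ± 0.08 (edgeR adjusted p = 3.39e-10), with no overlap and nearly the same fall on plate 1 (-1.25) and plate 2 (-1.30). Bckdk itself ran from 128 to 148 CPM (median 139) and from 98.7 to 149 CPM (median 127), a small fall of 0.19 ± 0.06 on the log2 scale within overlapping groups.

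The dehydrogenase subunits Bckdha, Bckdhb and Dbt fell to -0.47 ± 0.11, -0.42 ± 0.05 and -0.46 ± 0.07, and Dld, which other dehydrogenases share, stood at -0.19 ± 0.09 and was not called (edgeR adjusted p = 0.0928). The transaminases went apart. Bcat2, the mitochondrial form, ran from 51.6 to 71.9 CPM in lean (median 63.8) and from 27.3 to 55.3 CPM in obese kidneys (median 40.7), at -0.68 ± 0.11, while Bcat1, the cytosolic form, was the 1 that rose, by 1.21 ± 0.29. Further down, Ivd of leucine breakdown, Acadsb of isoleucine breakdown and Pcca, a chain of propionyl-CoA carboxylase, fell to -0.58, -0.57 and -0.52. Slc25a44, the mitochondrial carrier of these amino acids, stood at 0.04 and was not called. On plate 2 alone 14 of the 28 fell, with a median of -0.31, against 22 on plate 1; Bckdha was then not called (-0.22, edgeR adjusted p = 0.249).

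**Figure D3:**
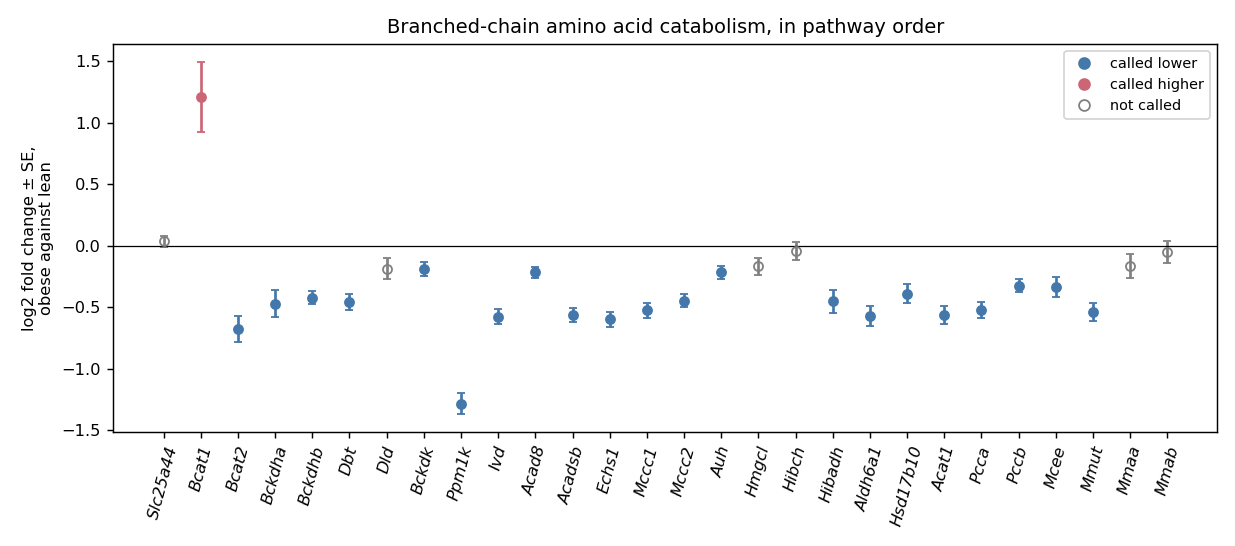
Log2 fold change ± SE, obese against lean, of the 28 genes of branched-chain amino acid breakdown in pathway order from uptake into mitochondria to the propionate steps; filled blue points fell, the red point rose and open points were not called. Ppm1k lies lowest at -1.28 and Bcat1 is the only point clearly above 0, at 1.21.

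Other mitochondrial genes fell by less. Of 29 nuclear genes of the respiratory chain 22 fell and 0 rose, with a median of -0.26; examples are Sdha at -0.34 ± 0.06 and Atp5f1c at -0.33 ± 0.06. This count rests on plate 1, where 22 fell (median -0.32): on plate 2 alone 1 fell (median -0.17), and with a term for a repeat run 14 did. Of 18 citrate cycle genes 14 fell and 0 rose, with Pdha1, the pyruvate dehydrogenase subunit, at -0.50 ± 0.07; 4 fell on plate 2 alone. Citrate synthase, Cs, stood at 0.03 and was not called.

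Fatty acid oxidation genes fell in the peroxisome and, for part of the list, in the mitochondrion. Of 20 peroxisomal genes 15 fell and 0 rose (8 on plate 2 alone), with a median of -0.33, led by Acox2 at -0.78 ± 0.08 and Hacl1 at -0.72 ± 0.08; of 21 mitochondrial genes 9 fell (2 on plate 2 alone, 4 with a term for a repeat run) and 2 rose. The 2 were Cpt1a (0.19), which admits fatty acids to the mitochondrion, and Acot2 (0.24). Hadha, of the trifunctional protein, stood at -0.01. Ppara, which drives both pathways, fell to -0.74 ± 0.20, and Ppargc1a was not called, at -0.20. Of 15 regulators of these pathways 8 fell (2 on plate 2 alone) and 1 rose, Creb3l3, a lipid-regulating transcription factor, by 1.45 ± 0.24.

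Single genes of fuel choice and lipid handling rose. Pdk4, the kinase that shuts pyruvate out of the mitochondrion, ran from 17.6 to 37.5 CPM in lean (median 23.5) and from 47.0 to 105 CPM in obese kidneys (median 71.5), at 1.67 ± 0.14. Angptl4, the lipoprotein lipase inhibitor, ran from 3.79 to 8.84 CPM (median 4.91) and from 24.8 to 48.0 CPM (median 39.8), at 2.90 ± 0.15. Plin2, the coat protein of lipid droplets, rose by 0.88 ± 0.06, and all 3 had separate groups. Of 10 ketone body genes 5 fell and 2 rose. Oxct1 and Bdh1, which act in the use of ketone bodies, fell to -0.87 ± 0.07 and -0.65 ± 0.08.

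Of 24 genes of lipid synthesis and storage 9 fell, above the background share, and 4 rose, slightly below it. Me1, which supplies NADPH, ran from 168 to 197 CPM in lean (median 180) and from 86.1 to 104 CPM in obese kidneys (median 98.8), at -0.90 ± 0.05, and the desaturase genes Scd2 and Fads2 fell to -0.91 and -0.89. Fasn (0.12) and Acly (0.07), the core enzymes of fatty acid synthesis, were not called. The 4 that rose were Plin2, Fabp4 (0.62, but -0.10 with lean replicate 8 included), Agpat2 and Elovl6.

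Of 15 gluconeogenesis and fructose genes 8 fell and 0 rose, but 1 fell on plate 2 alone, 3 with a term for a repeat run and 4 with lean replicate 8 included; Pck1, the rate-limiting enzyme, stood at 0.00 ± 0.16. Of 20 glycolysis and hypoxia genes 6 rose (2 with lean replicate 8 included) and 4 fell (0 on plate 2 alone), the falls close to the background share. Ldha rose by 0.48 ± 0.04 and Eno1 fell to -0.47 ± 0.07. Of 10 glucose-responsive genes 5 rose and 1, Mlx, fell. Txnip, the thioredoxin-binding protein induced by glucose, ran from 320 to 450 CPM in lean (median 390) and from 593 to 729 CPM in obese kidneys (median 676), at 0.82 ± 0.06, with separate groups.

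Transporters for amino acids and drugs largely fell. Of 20 amino acid transporters 14 fell (8 on each plate alone, 9 with lean replicate 8 included or with a term for a repeat run), and 1, Slc7a5, rose by 0.61. Slc7a12 fell furthest, to -1.84 ± 0.14. Of 21 organic ion and drug transporters 15 fell (9 on plate 2 alone) and 2 rose. Slco1a1, which takes up bile acids and steroids, ran from 198 to 352 CPM in lean (median 242) and from 33.6 to 66.6 CPM in obese kidneys (median 47.8), at -2.44 ± 0.13. The 2 that rose were Slco3a1, by 0.53, and Abcb1b, an efflux pump gene whose direction is uncertain: the symbol stands on 2 gene identifiers, of which ENSRNOG00000066042, the one counted, was at 1.84 ± 0.11 and ENSRNOG00000008012 at -0.84 ± 0.10.

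The largest fall among genes with a mean of at least 5 CPM in either group was that of Cyp8b1 (ENSRNOG00000019481), known in liver as the enzyme that sets the cholic acid share of bile acids. It ran from 21.2 to 34.0 CPM in lean (median 25.4) and from 0.694 to 2.95 CPM in obese kidneys (median 1.67), at -4.08 ± 0.19 (edgeR adjusted p = 6.49e-12), with separate groups. Cyp2c11, a male-specific steroid hydroxylase of the rat, fell to -2.19 ± 0.17. In the cytochrome P450 list 8 of 23 fell and 5 rose (5 and 2 on plate 2 alone). The falls stood above the background share, while the rises stayed close to it. The 5 that rose were Cyp1b1 (2.19 ± 0.24), Cyp26b1, Cyp4a8, Hsd3b1 and Cyp4b1. Outside the lists, Serpinb12, an intracellular protease inhibitor, fell from a lean median of 50.6 to an obese median of 3.05 CPM (-3.94 ± 0.16), and Anxa13 and Aldh1b1 fell to -2.95 and -2.55. Klk1c4 stood at -3.04 but can share reads with related kallikreins and is uncertain.

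Sodium and phosphate carriers did not move as a block: of 19 genes 6 fell and 3 rose. Against the fall of Slc34a1, its relative Slc34a2 ran from 47.1 to 67.4 CPM in lean (median 57.3) and from 131 to 262 CPM in obese kidneys (median 200), a rise of 1.82 ± 0.13 with separate groups. Fxyd5, a regulator of the sodium pump, rose by 1.24 ± 0.10 and Slc20a1 by 0.20.

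Among kidney hormones and protective factors 7 of 13 fell and 4 rose (4 and 2 on plate 2 alone). Kl, klotho, the co-receptor for the phosphate hormone FGF23, ran from 82.6 to 127 CPM in lean (median 102) and from 46.1 to 101 CPM in obese kidneys (median 75.5), at -0.42 ± 0.09, with overlapping groups. Igf1 and its carrier Igfbp3 fell to -0.95 ± 0.12 and -1.24 ± 0.19, while the carrier Igfbp1 rose by 1.36 ± 0.12. In the list of angiotensin, kallikrein and aldosterone genes 6 of 13 fell and 1, Sgk1, rose; Mme, or neprilysin, which degrades natriuretic peptides, fell to -0.79 ± 0.06 and Ace to -0.35 ± 0.09.

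Of 10 receptors and adaptors for leptin, insulin, glucagon and adiponectin, 8 fell (5 on plate 1 alone and 3 on plate 2 alone) and 0 rose. Lepr, the leptin receptor whose alleles separate the groups, ran from 5.19 to 13.2 CPM in lean (median 10.3) and from 1.13 to 6.19 CPM in obese kidneys (median 4.63), at -1.22 ± 0.20. A count of reads does not show which allele was expressed, so this level is no check of the genotype. Gcgr, the glucagon receptor, and Insr, the insulin receptor, fell to -1.23 ± 0.15 and -0.46 ± 0.10. Prlr, the prolactin receptor, outside the list, fell to -1.26 ± 0.08.

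Of 20 genes of glutathione metabolism and NRF2, a transcription factor that answers oxidative stress, 9 fell and 4 rose. The falls stood above the background share and the rises close to it. Gclc, which limits glutathione synthesis, fell to -0.72 ± 0.08 and Gsta1 to -0.95 ± 0.10. Gpx2, a glutathione peroxidase, ran from 5.85 to 10.9 CPM in lean (median 8.01) and from 32.0 to 66.0 CPM in obese kidneys (median 40.8), at 2.47 ± 0.14; the others that rose were Hmox1 (1.11), Gstm1 (0.88) and Akr1b8 (0.14).

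The obese kidneys also varied among themselves. Replicate 6 held the highest value of the 10 in 19 of 32 injury genes and the lowest in 18 of 27 early proximal tubule genes, and replicate 7 the lowest in 13 of 32 injury genes. Havcr1 was set against 16 genes over the 10 obese kidneys. Pearson's r of log2 CPM was 0.75 for Lcn2 (permutation p = 0.0108, adjusted over the 16 p = 0.11; Spearman's rho 0.77, permutation p = 0.0121, adjusted p = 0.0966). For Il24 r was 0.72 (permutation p = 0.0206, adjusted p = 0.11) and rho 0.83 (permutation p = 0.00474, adjusted p = 0.0758). Slc34a1 gave r of -0.71 (permutation p = 0.0205, adjusted p = 0.11) and rho of -0.60 (permutation p = 0.0726, adjusted p = 0.387), and Spp1 0.68 (permutation p = 0.0288, adjusted p = 0.115) and 0.54 (permutation p = 0.113, adjusted p = 0.454).

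No relation passed after adjustment, and the other 12 had r from -0.62 (Slc22a6) to 0.34 (Cd68). Without replicates 2 and 6, the kidneys farthest from the median of Havcr1, r was 0.53 for Lcn2, 0.73 for Il24, 0.53 for Spp1 and -0.08 for Slc34a1, so the relation with Slc34a1 rests on those kidneys. With the mean of each plate removed r was 0.72, 0.72, 0.64 and -0.76. Each plate holds 5 obese kidneys, too few for values of their own.

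**Figure D4:**
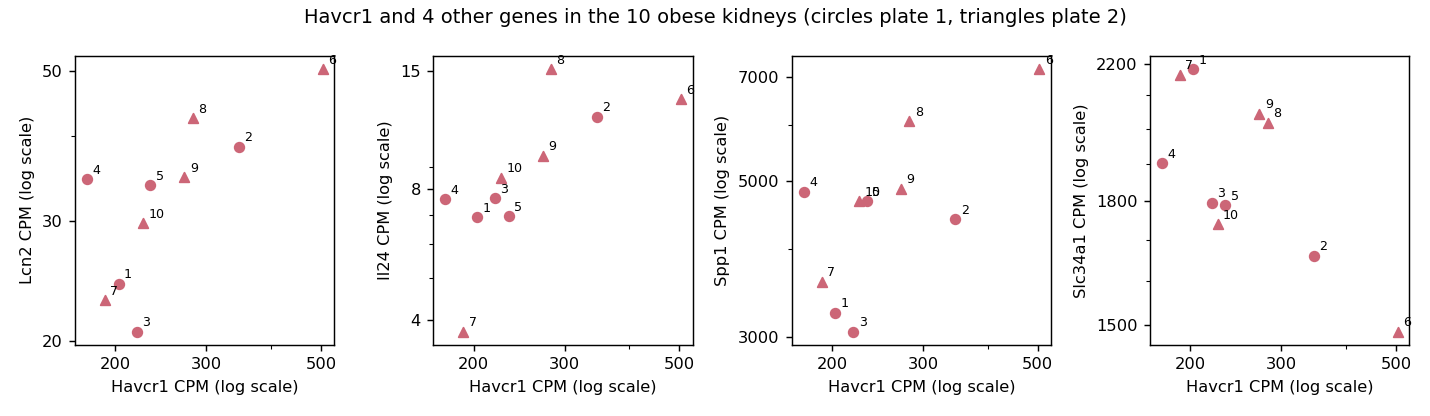
CPM of Lcn2, Il24, Spp1 and Slc34a1 (vertical, log axes) against Havcr1 (horizontal, log axis) in the 10 obese kidneys, numbered by replicate; circles are plate 1 and triangles plate 2. Replicate 6 has the highest Havcr1 (504 CPM) and the lowest Slc34a1 (1485 CPM).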

How the data were processed

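RNA of frozen kidney was made into stranded poly-A libraries, per the labels' protocols. The build was mRatBN7.2 and the tools were DESeq2 1.34.0, Salmon 1.5.2 and STAR 2.7.3a, beside MultiQC 1.11, Picard and FastQC 0.11.9, all per the submitters' processing notes, which give no roles. The deposited count tables hold estimated counts per gene and run, unnormalized, of which 6.85% were not whole. The authors' deposited comparison table holds signal, counts scaled by library, beside log2 fold changes and adjusted p-values. No sample matched 82 columns of values, and these were not used. Where a symbol stands on several gene identifiers, the one with most counts over the 60 kidney libraries entered the lists.

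Original and repeat runs were summed per library and rounded. Genes passing filterByExpr were tested with edgeR 4.0.16 (R 4.3.3): TMM scaling, quasi-likelihood fit, plate and group as terms, Benjamini-Hochberg threshold 0.05. Nothing beyond the labels says that libraries were prepared separately, and p-values measure the spread between them. On simulated data from these libraries (14176 genes), 80.6% of 1.5-fold, 95.5% of 2-fold and 95.5% of 4-fold changes were recovered, and 4.74% of calls were false. The simulation held no effect of plate or repeat run and changed few genes, so these shares may not hold for the real libraries. Members and gene lists were chosen with earlier results of these data known. Named genes were the called genes that carry a symbol, reach a mean of 5 CPM in either group and rank among the 15 highest or 15 lowest by fold change, the 10 smallest p in each direction, up to 5 called members of each list by adjusted p, uncalled list members given as values, and a fixed set including Havcr1, Lcn2, Lepr, Bckdk and Ppm1k. Some further called members were named where few of a list went in a direction, a choice made after their values were seen. Correlations used permutation tests, two-sided.

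Alternatives were DESeq2 1.42.0, its size factors within edgeR, a fit of genes at any count, a fit that ignores the plate, tagwise dispersion, each plate alone, all 6 kidney groups in a joint fit, the original run alone, a term for a repeat run, lean replicate 8 included, a replicate block, each library left out and, chosen after seeing the data, obese replicates 2 and 4 left out together. Some genes of the lists are counted but not reported by name.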

Additional observations from a re-analysis of the deposited data

Results flagged for a closer look

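Of 76 groups of values tested for a library far from the others, 4 were picked out, where chance gives about 1 in 20. Havcr1 stood at 21.9 CPM in lean replicate 1, with the next lean kidney at 10.7 CPM, and at 504 CPM in obese replicate 6, with the next obese kidney at 346 CPM. A2m stood at 1.12 CPM in lean replicate 1, next 0.507 CPM, and Il24 at 1.12 CPM in the same library, next 0.165 CPM; both rest on 7 counts.

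Lean replicate 8, left out of the comparison, carried signal away from the other 9 lean kidneys. Myh4 stood at 10303 CPM, Havcr1 at 157 CPM, Lcn2 at 17.6 CPM, Egf at 492 CPM and Cyp8b1 at 5.51 CPM. Of 248 called genes named by rule, 115 lay within the range of the 10 obese kidneys in this library. The part of muscle RNA or of a mixed-up label in these values was not tested.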

How the results depend on the processing

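The count of 5423 called genes stayed within 1.5 times in all alternatives but plate 2 alone, which gave 2766. Tagwise dispersion gave the same 5423 calls, so it is no separate check. Leaving out each library in turn gave 5047 to 5402, DESeq2 6036, no plate term 4790, a term for a repeat run 3970 and the original run alone 4693. In the fit of the original run alone, obese replicate 2 entered with 0.007 M counts. With a replicate block 4766 genes were called; same-numbered kidneys correlated from -0.237 to 0.292 and matched best in 2 of 9 pairs, so the numbers are not taken to pair animals. The share of calls that were higher was 51.5%, and 46.9% to 59.1% over the alternatives. Of 248 called genes named by rule, 192 kept the call in every alternative that gave a value and 56 lost it in at least 1. The sign turned in 1 gene named by rule, not reported here, on plate 1 alone, and with lean replicate 8 included for Egln3, a hypoxia gene that rose by 0.52 (-0.09) and Fabp4 (-0.10); the cause was not tested. Low counts limit the size of folds for Il24, Il19 and A2m, and for other genes near 0 in lean kidneys. Among these others, mean lean levels were 0.632 CPM for Mmp12, 0.347 CPM for Cdkn2b, 0.34 CPM for Aurkb, 0.272 CPM for Cps1 and 0.249 CPM for Egr2.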

Other observations

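Several lists not yet described are read against the same background of 19.6% higher and 18.5% lower. The circadian clock list stayed near it in both directions. Of 17 genes of the circadian clock 3 rose and 3 fell: the activator gene Arntl fell to -0.39 ± 0.09 and the output factors Hlf and Tef to -0.58 ± 0.09 and -0.38 ± 0.09, while Per1, Nfil3 and Bhlhe41, which repress clock transcription, rose by 0.47, 0.64 and 0.79. Of 22 cholesterol synthesis and uptake genes 6 rose and 4 fell (1 on plate 2 alone).

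Of 17 genes of amino acid and protein stress 3 rose and 6 fell (2 on plate 2 alone), so this list stood above the background on the lower side only. The serine synthesis genes Psph, Phgdh and Psat1 fell to -0.83 ± 0.09, -0.65 ± 0.15 and -0.56 ± 0.10, while Asns, which makes asparagine, rose by 0.81 ± 0.09, Mthfd2, of mitochondrial folate metabolism, by 0.94 ± 0.16 and the transcription factor gene Atf5 by 0.46 ± 0.12. Shmt2, also of mitochondrial folate metabolism, fell to -0.29 ± 0.07, as did Sesn2 (-0.29) and Xbp1 (-0.19). Atf4 itself (0.09) and the chaperone gene Hspa5 (0.05) were not called. Of 8 genes of medullary osmolytes and urea 3 rose and 1 fell, so this short list stood above the background on the higher side only. Nfat5, the factor that answers high salt, rose by 0.41 ± 0.09 and the urea carrier gene Slc14a1 by 0.64 ± 0.17. Akr1b1, which makes sorbitol, stood at -0.52 ± 0.26 and was not called.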
